A study of Schizosaccharomyces pombe with 80 samples.

Results

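The 8 hexose transporter genes of fission yeast, ght1 to ght8, were examined for dimethylation of histone H3 at lysine 9 (H3K9me2), the mark of heterochromatin. They were taken by name from the genome annotation, 8 of 12606 annotated genes, and a gene was counted as marked in a sample when a peak of that sample's H3K9me2 list overlapped it by at least 1 base. Of 7203 peaks in 75 lists, 54 overlapped a ght gene, and all 54 lay over 4 members. These were ght3 with 29 peaks, ght7 with 22, ght1 with 2 and ght6 with 1. No list held a peak over ght2, ght4, ght5 or ght8.

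The ght genes encode sugar carriers of the plasma membrane. Each protein crosses the membrane many times and takes up hexose, and Ght5 is the high-affinity carrier on which fission yeast depends when glucose is scarce. H3K9me2 is laid down by the methyltransferase Clr4 at centromeres, the mating-type region and chromosome ends, where it silences genes, and the JmjC-domain protein Epe1 opposes its spread into neighbouring chromatin. Genes close to chromosome ends, where transporter genes are common, can fall under such spreading heterochromatin.

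The study asked whether pausing of RNA polymerase II can start heterochromatin, and profiled Schizosaccharomyces pombe by chromatin immunoprecipitation with an antibody to H3K9me2. The 55 isolates all lacked epe1, as did their 7 parents. The epe1 vector group (15 isolates) carried the empty pDUAL nmt1 plasmid, and the epe1 tfs1DN group (13 isolates) carried tfs1DN, an allele of the TFIIS gene tfs1 whose product blocks restart of paused polymerase, integrated at leu1 behind the thiamine-repressible nmt1 promoter. The epe1 ago1 tfs1DN group (12 isolates in 3 sets, each set with its own parent) also lacked Argonaute, and the seb1-1 epe1 tfs1DN group (15 isolates with 1 parent) also carried the seb1-1 allele of the RNA-binding termination factor Seb1. Per the study's methods, isolates were kept in thiamine because high tfs1DN expression is lethal, so the tfs1DN groups model a low, leaky expression beside the intact tfs1 gene. The remaining lists came from 9 inputs and from 2 pfs2-11 mutants and 2 wild types, for which the labels name no epe1 deletion and a growth temperature of 37 C in place of 30 C. The labels name no sequencing batch, and each group had its own parents and inputs, so group and any difference in preparation cannot be told apart. The labels of tfs1DN isolates 2 to 12 name a parent of isolates 2 to 12, taken here to be the sample titled as parent of isolates 2 to 11, and tfs1DN isolate 13 is numbered so in its title while its list is numbered 15. Cultures are mixtures of cells, so a higher fold cannot be told apart from a larger share of marked cells.

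A peak's fold is its coverage divided by the coverage that its list gives for the chromosome, and every listed peak had a fold above 3. The chromosome II coverage given in the lists is the only measure of depth here. It ran from 1.77 to 6.42 in vector and 3.43 to 12.5 in tfs1DN isolates. In ago1 tfs1DN isolates it ran from 13.4 to 34.5, and in seb1-1 isolates from 18.9 to 49.1. The listed value of at least 1 chromosome was smaller than a mean over all positions could be in 36 of 74 lists. Among them were every vector and seb1-1 isolate (15 each) but no tfs1DN or ago1 tfs1DN isolate, so folds were not compared between groups. Which chromosomes these were was not recorded list by list, so the listed coverage is an uncertain measure of depth in those lists. In vector isolate 12, chromosome I was among them. There, 1 peak of 90.8 kb at a fold of 66.8 held more coverage than all 5579133 bases at the listed value. A peak is listed only above a fold of 3. A too small value can therefore enter every comparison of peak presence between vector or seb1-1 and tfs1DN or ago1 tfs1DN isolates. In these the same fold need not be the same enrichment. The part of a too small value in those comparisons was not tested. An empty list, with 0 peaks, was deposited for the parent of tfs1DN isolates 1 and 13. The 9 inputs, the 3 epe1 ago1 parents and the 4 pfs2 samples held no peak over any ght gene.

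The 8 genes lie at very different distances from chromosome ends. The annotation gives each of them 1 exon, so every position under a peak within a ght gene was exonic. The nearest to an end is ght7 on chromosome II (II:38514-40143, minus strand), 38.5 kb from the left end, and the next is ght3 on chromosome I (I:82936-84786, plus strand), 82.9 kb from the left end. The hexose transporter gene ght4 (II:155772-159570) lies 156 kb from the left end. A cluster of 4 members occupies chromosome III. These are ght6 (III:204733-206717), ght5 (III:212313-214376), ght8 (III:226336-228845) and ght1 (III:232288-235195), between 205 and 232 kb from the left end. The remaining member, ght2 (II:3427160-3429424), lies 1110 kb from the right end of chromosome II. The 2 members nearest to an end held 51 of the 54 peaks, a count over a family of 8 genes that was not tested.

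Sequences are shown first for the 2 members that held most peaks, from RefSeq chromosomes of the ASM294v3 build, each on the coding strand and inside the coding sequence. For ght7 the capitals mark 77 bases (II:39334-39410) that lay under a peak in all 15 seb1-1 isolates and in all 4 vector isolates with a ght7 peak, with 60 flanking bases on each side (II:39274-39470).
ght7 stretch: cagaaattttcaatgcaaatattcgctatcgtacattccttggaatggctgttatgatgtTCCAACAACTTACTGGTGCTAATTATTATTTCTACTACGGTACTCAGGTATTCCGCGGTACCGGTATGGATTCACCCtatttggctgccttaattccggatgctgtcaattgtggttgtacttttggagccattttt
For ght3 the capitals mark 63 bases (I:83612-83674), the longest stretch under a peak in 17 of the 18 isolates with a ght3 peak, again with 60 flanking bases (I:83552-83734).
ght3 stretch: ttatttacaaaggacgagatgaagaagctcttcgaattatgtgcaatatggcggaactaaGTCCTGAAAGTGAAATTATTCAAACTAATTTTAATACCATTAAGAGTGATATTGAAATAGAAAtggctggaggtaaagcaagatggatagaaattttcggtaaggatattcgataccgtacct
The stretches begin 734 bases after the start of ght7 and 677 bases after the start of ght3, in the middle of each gene rather than at its edge.

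Members share sequence, which matters because per the study's methods a read that aligned equally well to several sites was placed at 1 of them. Coding identity was highest for ght5 with ght8 (91.8% of aligned positions), followed by ght3 with ght4 (81.6%), and the lowest was 58.7% between ght3 and ght7. No 50-base word of ght7 or ght2 occurs elsewhere on the 3 chromosomes, so an exact read of at least that length would have 1 site. Read lengths were not examined here, and reads down to 20 nt were kept, so placement of shorter reads was not tested. In ght3, 11.8% of 50-base words recur, and ght3 and ght4 share an unbroken run of 240 bases, marked below in capitals within I:83771-84050 for ght3 and II:158390-158669 for ght4.
ght3 shared: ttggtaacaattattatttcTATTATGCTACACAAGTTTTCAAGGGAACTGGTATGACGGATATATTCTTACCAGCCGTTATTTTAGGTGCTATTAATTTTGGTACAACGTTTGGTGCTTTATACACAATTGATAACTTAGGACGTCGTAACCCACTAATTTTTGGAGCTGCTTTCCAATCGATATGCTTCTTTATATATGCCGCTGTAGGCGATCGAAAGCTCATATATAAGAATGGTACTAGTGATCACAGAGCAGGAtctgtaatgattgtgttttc
ght4 shared: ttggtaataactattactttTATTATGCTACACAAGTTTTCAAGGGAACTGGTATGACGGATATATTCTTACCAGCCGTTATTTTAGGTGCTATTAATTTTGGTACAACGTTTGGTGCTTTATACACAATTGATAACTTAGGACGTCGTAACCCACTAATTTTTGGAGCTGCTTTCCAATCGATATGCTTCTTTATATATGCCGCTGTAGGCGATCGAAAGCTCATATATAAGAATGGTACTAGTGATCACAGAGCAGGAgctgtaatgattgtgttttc
Over this pair, H3K9me2 peaks were listed at ght3 and at no position of ght4. The repeated bases of ght3 made up 310 of its 1851 bases, and the most isolates with a peak at any 1 base was 17 both over its unique and over its repeated bases. The recurring share was 29.6% of 50-base words in ght5, 24.7% in ght8, 5.39% in ght1 and 2.01% in ght6. GC content ran from 37.2% in ght4 to 41.9% in ght6, and 36.1% over the 3 chromosomes.

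**Figure D1:**
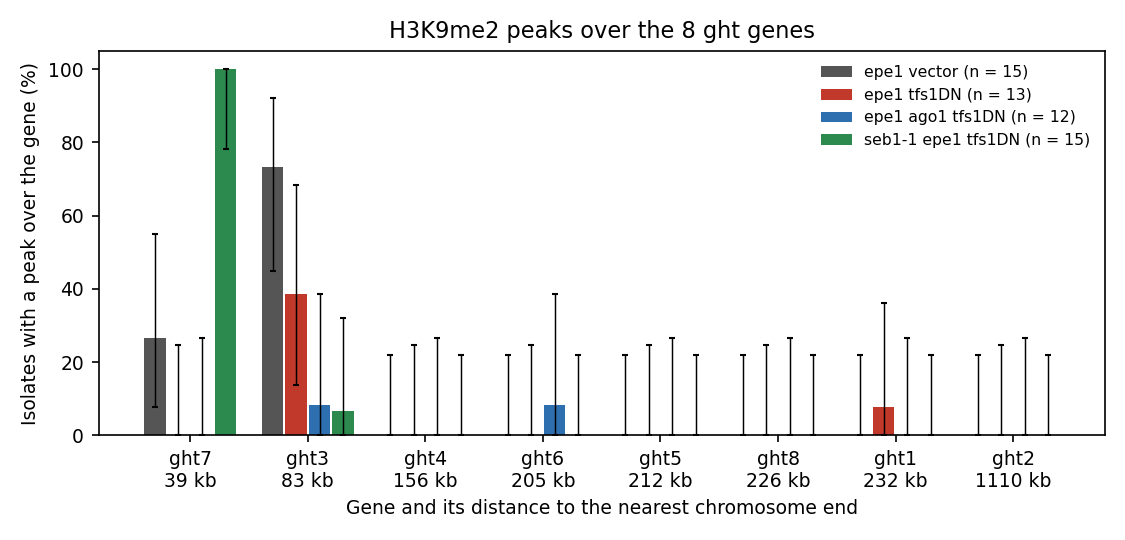
Percentage of isolates with an H3K9me2 peak over each ght gene, with genes ordered by their distance to the nearest chromosome end. Bars are groups of isolates and error bars are 95% exact binomial intervals. Only ght7 and ght3 reach more than 10% in any group, with ght7 at 100% in seb1-1 and ght3 at 73.3% in vector isolates.

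The ght7 gene, annotated as a hexose transporter, was under a peak in all 15 seb1-1 epe1 tfs1DN isolates (100%, 95% exact binomial interval 78.2 to 100%), in 4 of 15 vector isolates (26.7%, 7.79 to 55.1%), and in 0 of 13 tfs1DN (up to 24.7%) and 0 of 12 ago1 tfs1DN isolates (up to 26.5%). In the seb1-1 isolates the covered length of ght7 was lowest at 77 bp in isolate 2, had a median of 816 bp and was highest at 1032 bp in isolate 9. The fold ran from 3.01 in isolate 2 over a median of 3.36 to 3.62 in isolate 9. All of these folds lie close above the threshold of the lists, and isolate 2 barely passed it. The centres of the 15 peaks lay between 696 and 771 bp after the gene start, so the same part of the gene was marked in each isolate, and no peak left the gene body.

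Among vector isolates, ght7 was covered for 658 bp in isolate 1, 1014 bp in isolate 3, 1010 bp in isolate 4 and 1321 bp in isolate 12, with folds of 3.12, 3.44, 3.32 and 3.40. Lengths in these 4 isolates overlapped those of the seb1-1 isolates, and the peak centres lay between 821 and 1056 bp after the gene start, farther along than any seb1-1 centre. The same 4 isolates also had a ght3 peak, while 7 vector isolates had ght3 without ght7 and 4 had neither. The chromosome II end peak, the peak that starts at the first base, reached 29.9 to 30.3 kb in the 4 isolates with a ght7 peak, against a median of 17.7 kb (16.3 to 30.0 kb) in the 11 without, and stopped short of ght7 in each. Listed chromosome II coverage was 3.07 to 6.42 with a ght7 peak and 1.77 to 6.19 (median 2.92) without. The part of depth in this was not tested.

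The parents of both groups also had a ght7 peak. The seb1-1 parent, 1 sample, had a peak of 974 bp and fold 3.55 over ght7, within the range of its isolates. The vector parent had 757 bp of ght7 under 2 peaks with a length-weighted mean fold of 3.22. Thus 15 of 15 isolates of the seb1-1 parent and 4 of 15 isolates of the vector parent had the peak that their parent had, while the 3 ago1 parents and the other 2 epe1 parents, 1 of them with an empty list, had none. Where peaks within 10 kb of a peak of the isolate's own parent were left out, no seb1-1 or vector isolate kept a ght7 peak. This outcome was fixed by construction, since both parents had a peak inside the gene.

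Comparing groups by Fisher's exact test over all genes with a peak in at least 1 isolate of the pair, ght7 was higher in seb1-1 than in vector isolates by 73.3 percentage points (adjusted p = 0.000281). Of 668 genes tested in this comparison, 24.6% were called. Each of these groups came from 1 parent that itself had a ght7 peak, so this p-value cannot separate genotype from parental lineage. Against tfs1DN isolates the difference was 100 percentage points (Fisher's exact test, adjusted p = 8.22e-07), where 37.2% of 1508 genes were called. The seb1-1 parent already had a ght7 peak, while the parents of tfs1DN isolates listed none, 1 of them from an empty list. This p-value likewise cannot separate genotype from parental lineage. At least 1 listed chromosome value was too small for a plain mean in all 15 seb1-1 lists and in 0 of the 13 tfs1DN lists. Whether chromosome II was among them was not recorded, so a fold of 3 may not be on the same scale in both groups. Listed coverage also differed between the groups. The call against tfs1DN was lost with peaks of fold at least 4.5, which no isolate had over ght7, and with peaks of at least 1 kb (1 seb1-1 isolate, adjusted p = 1, Fisher's exact test). The call against vector was lost at the same fold and already at a fold of at least 3.37, the median of all isolate peaks. It was also lost where only genes with 50% or more of their length under peaks were counted (Fisher's exact test, adjusted p = 0.383), since 7 seb1-1 isolates fell below that share. With peaks of at least 1 kb the difference from vector turned to -13.3 percentage points, with such a peak in 1 seb1-1 and 3 vector isolates.

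The vector comparison for the other groups did not pass for ght7. The differences were -26.7 percentage points in both tfs1DN (adjusted p = 0.219, 35% of 1582 genes called) and ago1 tfs1DN isolates (adjusted p = 0.384, 17.2% of 646 genes called).

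**Figure D2:**
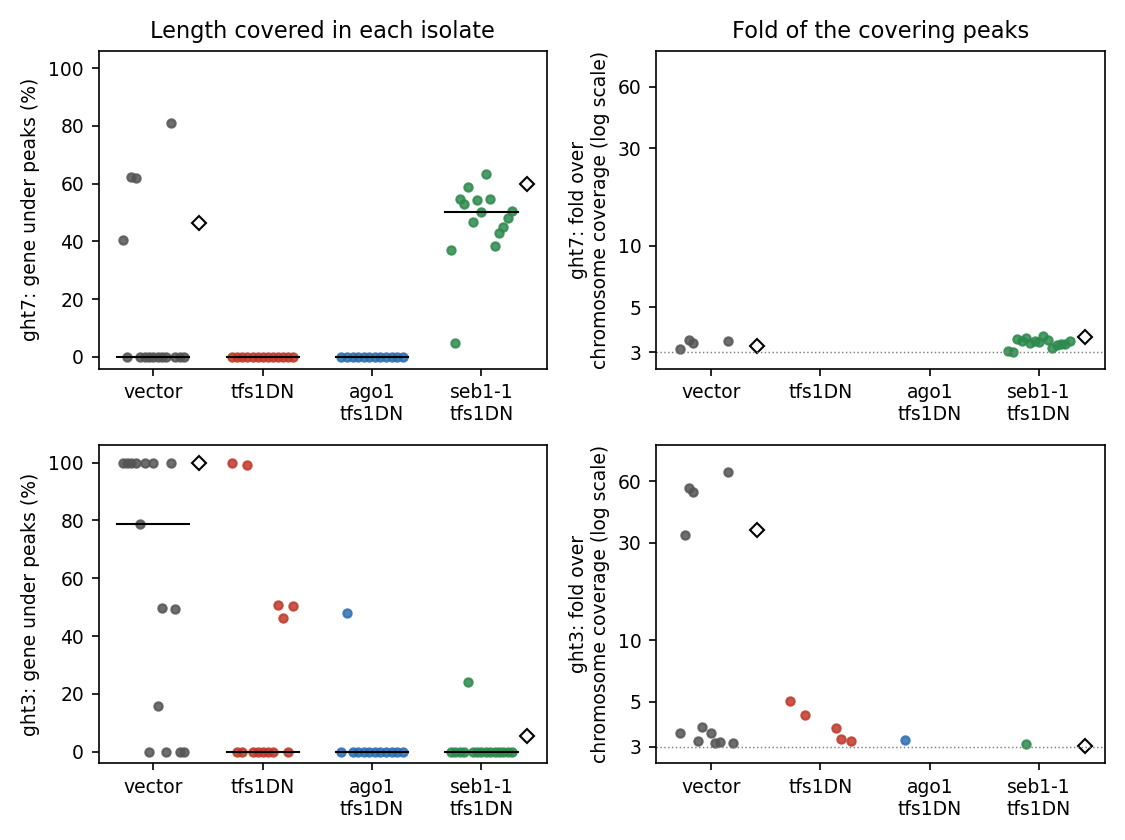
Percentage of ght7 (top) and ght3 (bottom) under peaks and the fold of the covering peaks on a log scale, with each point 1 isolate, horizontal lines group medians, open diamonds the vector and seb1-1 parents and the dotted line a fold of 3. The ght7 folds lie between 3.01 and 3.62, while ght3 folds reach 66.8 in vector isolates. The fold of 66.8 rests on a listed chromosome value too small for a plain mean.

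Genes around ght7 differed in their marking. On its left, SPBC1348.12, annotated as a transcription factor, lay under a peak in 8 vector and 7 seb1-1 isolates. On its right, SPBPB8B6.02C, annotated as a urea transporter and 4.55 kb away, lay under a peak in the same 19 isolates as ght7. Next to it, grt1 and fah1, 7.23 and 7.29 kb away, lay under a peak in 6 and 5 vector isolates and in 12 seb1-1 isolates each. Beyond them, fex2 at 15.6 kb showed another pattern, with 13 vector, 11 tfs1DN, 8 ago1 tfs1DN and 0 seb1-1 isolates. Over protein-coding genes more than 20 kb away, the pattern most like ght7 across the 55 isolates, by shared isolates over isolates with either, was that of SPAPB18E9.04C on chromosome I and of SPBC23G7.10C, an oxidoreductase by its annotation, and mag2, a DNA glycosylase gene, on chromosome II, each 0.789, with a tie for rga7. Each of the 4 was marked in 15 of 15 seb1-1 isolates and in no isolate of another group. Of these, rga7, SPBC23G7.10C and mag2 lie close together, 2110 to 2120 kb from an end of chromosome II, so they are not separate matches. The sulfate transporter gene sul2, 70.4 kb from an end of chromosome I, followed at 0.783 with 14 seb1-1 and 8 vector isolates.

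The ght3 gene, whose annotated product is a gluconate:proton symporter, was under a peak in 11 of 15 vector isolates (73.3%, 44.9 to 92.2%), 5 of 13 tfs1DN (38.5%, 13.9 to 68.4%), 1 of 12 ago1 tfs1DN (8.33%, 0.211 to 38.5%) and 1 of 15 seb1-1 isolates (6.67%, 0.169 to 31.9%). Of the 11 vector isolates, 7 had the whole gene under a peak, and the others had 15.7% (isolate 9), 49.3% (isolate 13), 49.7% (isolate 10) and 78.7% (isolate 5). In vector isolates 2, 3, 4 and 12 a single peak that began at the end of chromosome I ran through ght3, with lengths of 84.9, 86.8, 87.8 and 90.8 kb and folds of 32.8, 55.5, 53.0 and 66.8. The fold of isolate 12 rests on a listed chromosome I value too small for a plain mean, so its size is uncertain. The other 7 had 1 to 4 separate peaks over the gene, with single folds of 3.03 to 3.76, which joined the end region in isolates 1 and 6 when peaks less than 1 kb apart were merged. In 4 vector isolates without a ght3 peak, the nearest peak lay 1.08 kb (isolate 14), 4.49 kb (isolate 7), 11.7 kb (isolate 15) and 12.8 kb (isolate 11) away.

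The peak at the end of chromosome I differed widely in reach among vector isolates. In isolates 2, 3, 4 and 12 it was itself the ght3 peak, so its reach there is no separate measure. In the other 7 isolates with a ght3 peak it reached 78.5 to 82.1 kb (isolates 1, 6, 8 and 10), 46.9 kb (isolate 9), 48.4 kb (isolate 13) and 37.4 kb (isolate 5). It reached 36.4 to 37.4 kb in the 4 isolates without a ght3 peak, a range that includes isolate 5. Listed chromosome I coverage was 1.70 to 6.52 (median 3.07) with a ght3 peak and 2.36 to 4.41 (median 2.83) without. The part of depth was not tested. The vector parent had an end peak of 90.9 kb at a fold of 34.6 through ght3, longer than in any vector isolate.

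**Figure D3:**
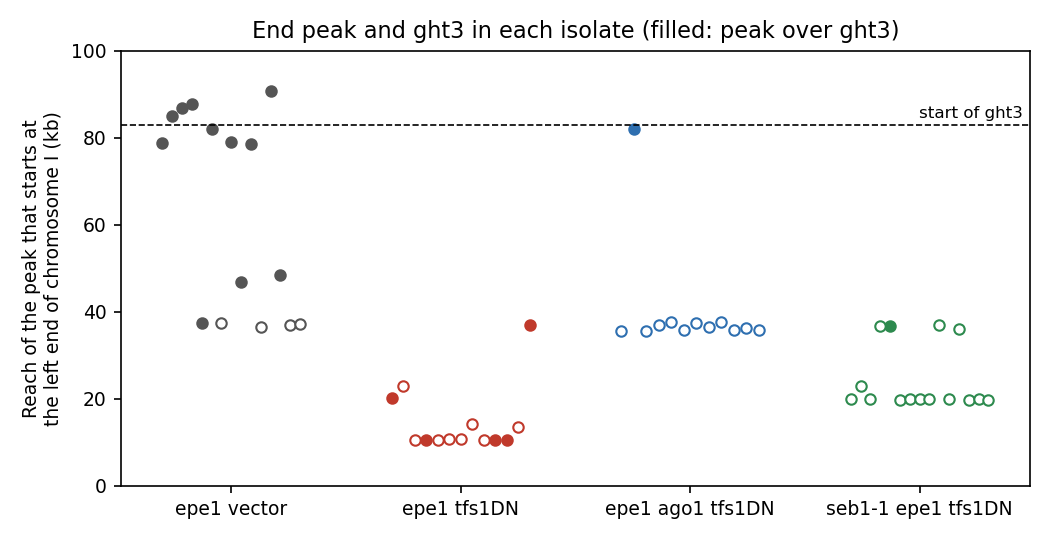
Reach in kb of the peak that starts at the left end of chromosome I in each isolate, with filled points for isolates with a ght3 peak and the dashed line at the start of ght3. Vector isolates with a ght3 peak reach up to 90.8 kb, while tfs1DN isolates with one reach at most 36.9 kb.

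In the tfs1DN group the ght3 peaks stood apart from the end peak, which reached 10.5 to 36.9 kb. Isolate 1 had the whole gene under a peak of 8.08 kb at a fold of 5.02, within a merged region of 34.5 kb that also covered 9 other protein-coding genes, among them dak2, a dihydroxyacetone kinase gene, and str3, an iron-siderophore transporter gene. Isolate 4 had 99.2% of ght3 under 2 peaks with a length-weighted mean fold of 4.29. Isolates 10, 11 and 13 had 50.8%, 46.1% and 50.2% at folds of 3.71, 3.28 (length-weighted mean of 2 peaks) and 3.21. No ght3 peak was listed for the parents of these isolates, but the list of the parent of isolates 1 and 13 was empty. The 5 isolates had 75 to 434 peaks in their lists, against 75 to 669 in the whole group, and the isolate with the most peaks, isolate 9, had none over a ght gene.

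The single ago1 tfs1DN isolate with ght3, isolate 2 of set 1, had 885 bp covered at a fold of 3.24. It was also the isolate with the longest end peak on chromosome I in its group, 81.9 kb, against 35.6 to 37.6 kb in the other 11. The single seb1-1 isolate, isolate 5, had 445 bp at a fold of 3.11, and its parent had 99 bp at a fold of 3.02. These seb1-1 peaks lie at the threshold of the lists.

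Fewer ago1 tfs1DN than vector isolates had a ght3 peak, a difference of -65 percentage points (Fisher's exact test, adjusted p = 0.0127, 17.2% of genes called). The same held for seb1-1 isolates, at -66.7 percentage points (adjusted p = 0.00238, 24.6% called). The comparison of tfs1DN with vector gave -34.9 percentage points and did not pass (adjusted p = 0.268). Without tfs1DN isolates 1 and 13 it was -46.1 percentage points and did not pass either (adjusted p = 0.112). Differences from tfs1DN isolates were -30.1 percentage points for ago1 tfs1DN (adjusted p = 0.435, 24.2% of 1505 genes called) and -31.8 percentage points for seb1-1 isolates (adjusted p = 0.165). The vector comparisons share the same 15 vector isolates. Each of these had at least 1 listed chromosome value too small for a plain mean, as did the seb1-1 but not the ago1 tfs1DN isolates. All vector isolates came from 1 parent and all seb1-1 isolates from another, both with a ght3 peak. These p-values cannot separate genotype from parental lineage. The ago1 call was lost without set 2 (adjusted p = 0.142) and without set 3 (adjusted p = 0.0652), and both calls were lost with peaks of fold at least 4.5 (adjusted p = 0.418 for ago1 tfs1DN and 0.296 for seb1-1). With peaks near the own parent left out, the tfs1DN difference turned to 38.5 percentage points higher but did not pass (adjusted p = 0.124). That step removed the vector peaks by construction, since the vector parent's peak spans ght3, and could remove none from isolates 1 and 13, whose parent's list is empty.

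Marking of the genes beside ght3 varied from gene to gene. SPAPJ695.01C, the nearest protein-coding gene on the side of the chromosome end, lay under a peak in 13 vector, 2 tfs1DN, 3 ago1 tfs1DN and 0 seb1-1 isolates. On the far side, shu1, 0.78 kb away, lay under a peak in 5 vector and 1 tfs1DN isolates. Farther out the counts did not fall steadily, with 6 vector and 2 tfs1DN isolates at str3 (3.42 kb away), 2 and 1 at hhy1 (7.60 kb), 0 and 1 at isp3 (11.0 kb), and 9 tfs1DN and 3 seb1-1 isolates at pdc101 (16.9 kb), a pyruvate decarboxylase gene. Of the 18 isolates with a ght3 peak, 5 also had a peak over shu1. The pattern most like ght3 was that of nhe1, a sodium ion/proton antiporter gene 52.0 kb from an end of chromosome I, which shared 16 of 26 isolates (0.615). SPBPB2B2.07C on chromosome II and SPAC977.06 on chromosome I followed at 0.556 and 0.545.

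**Figure D4:**
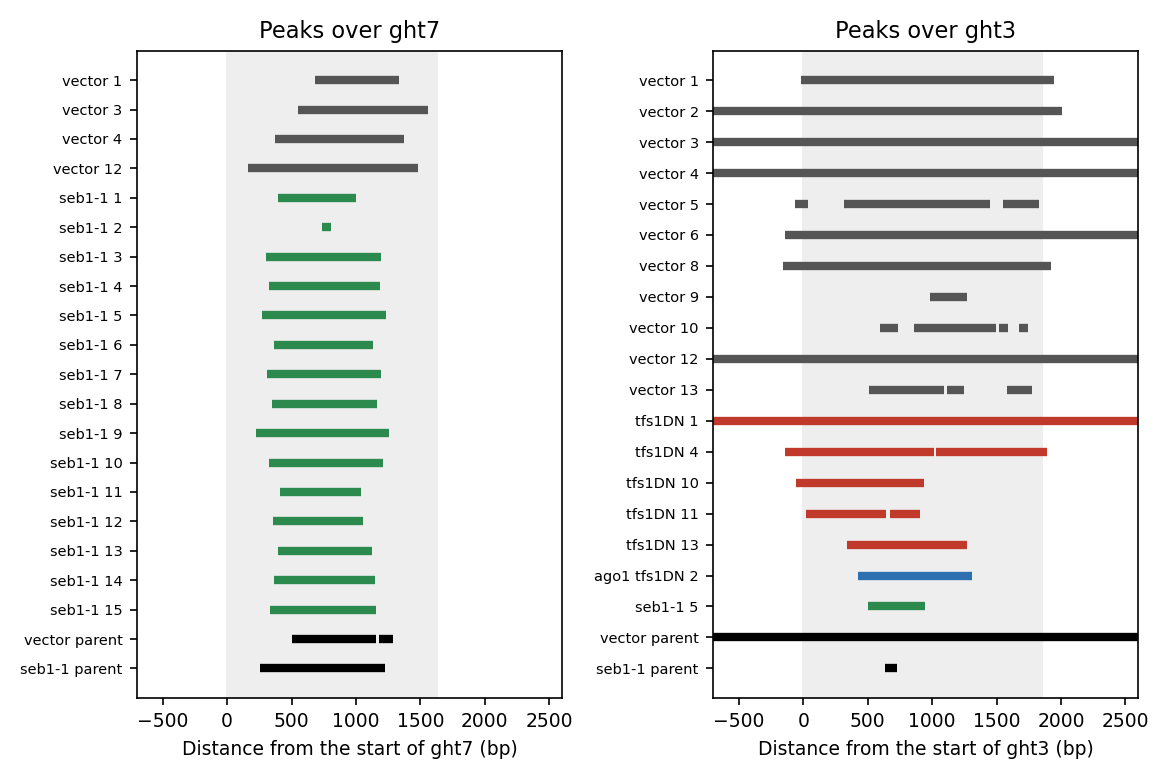
Extents of the peaks over ght7 (left) and ght3 (right) in each sample that had one, as distance in bp from the gene start in the direction of transcription. Grey shading marks the gene and peaks that pass the plotted range are drawn to its edge. The ght7 peaks lie in the middle of the gene and the ght3 peaks of vector isolates 2, 3, 4 and 12 run through it.

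Among the 4 clustered members of chromosome III, ght1 and ght6 were each marked in 1 isolate. The high-affinity glucose:proton symporter gene ght1 lay under 2 peaks in tfs1DN isolate 4, with folds of 4.87 and 3.89 and together a region of 4.31 kb (III:232550-236858) that covered 82.2% of the gene and no other protein-coding gene. The annotation also places the lncRNA SPNCRNA.1121 there. The same isolate carried a ght3 peak, the only isolate of its group with peaks over 2 ght genes. The glucose/fructose carrier gene ght6 lay under a peak in ago1 tfs1DN isolate 4 of set 2, at a fold of 4.09 over 89.6% of the gene. The merged region of 6.05 kb (III:200461-206510) also held mpc1 and mug146. No parent had a peak over ght1 or ght6, and the tests did not call either gene in any comparison that included it (adjusted p from 0.532 to 1, Fisher's exact test).

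The other 2 members of the cluster, ght5 and ght8, lie between these regions, which came from different isolates, and had no peak of their own. The nearest peak to ght8 lay 3.71 kb away, in tfs1DN isolate 4, and the nearest to ght5 lay 5.80 kb away, in ago1 tfs1DN isolate 4. In vector and seb1-1 isolates the nearest peak to ght5 stayed 61.8 to 61.9 kb away in all 30. For ght4, the nearest peaks lay over its neighbour mal1, a maltase gene, 0.783 kb away in the parent of tfs1DN isolates 2 to 12 and 1.13 kb away in tfs1DN isolate 8. The most central member, ght2, had its nearest peak 21.4 kb away, in tfs1DN isolate 9. A count of 0 in 55 isolates is limited by the groups' size, with upper bounds from 21.8% in 15 isolates to 26.5% in 12.

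Counting members per isolate, 33 of 55 isolates had a peak over at least 1 ght gene, and none had more than 2. Vector isolates had 0 members in 4, 1 in 7 and 2 in 4 isolates. In tfs1DN these numbers were 8, 4 and 1, in ago1 tfs1DN 10, 2 and 0, and in seb1-1 isolates 0, 14 and 1. The median length of ght genes under peaks was 1.46 kb in vector (0 to 3.17 kb), 0 in tfs1DN (0 to 4.23 kb), 0 in ago1 tfs1DN (0 to 1.78 kb) and 0.816 kb in seb1-1 isolates (0.077 to 1.41 kb). The ago1 tfs1DN isolates differed from their 3 parents, all at 0, by a mean of 0.222 kb (exact permutation test, two-sided p = 1). Both pfs2-11 and both wild-type samples were at 0, so no test of their difference was informative.

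Some of the genes that act with the hexose carriers were marked in tfs1DN isolates. Of 31 further genes of sugar uptake, sugar hydrolysis and phosphorylation, glucose sensing and low-glucose signalling, 11 lay under a peak in at least 1 isolate, and every such isolate belonged to the tfs1DN group. That group also held 3886 of the 6342 peaks of all isolates and had 11.0% of all annotated genes under a peak in at least 1 isolate, against 3.64 to 4.47% in the other groups. Its peaks had a median length of 481 bp and a median fold of 3.29, near the threshold of the lists. The lists of this group held 75 to 669 peaks. The parent of isolates 2 to 12, which does not carry tfs1DN, already had 337. Among uptake genes, itr2, a myo-inositol transporter gene, was marked in 8 of 13 tfs1DN isolates, and itr1 and gti1, which induces gluconate uptake, in 1 each. Among glucose-sensing genes, pka1, which encodes the catalytic subunit of protein kinase A, was marked in 7, scr1, a repressor of glucose-repressed genes, in 6, and cgs1, the regulatory subunit of the same kinase, in 2. The kinase gene ssp1 was marked in 3, the hexokinase genes hxk1 and hxk2 in 2 and 1, and the glucosidase genes agl1 and mal1 in 1 each. Compared with vector isolates, 3 of the 11 that could be tested were called, all higher in tfs1DN (itr2 with adjusted p = 0.00178, pka1 with 0.00534 and scr1 with 0.0146, Fisher's exact test). Of all genes tested in this comparison, 23.4% were called higher in tfs1DN, so the share of the listed genes lay near that of all genes. The parent of tfs1DN isolates 2 to 12 also had a peak over itr2, pka1, ssp1 and mal1.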

How the data were processed

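H3K9me2 peak lists from 75 of 80 samples were analysed. The 5 RNA polymerase II samples were not analysed here. Per the study's methods and the labels, the authors trimmed adaptors, dropped reads shorter than 20 nt, mapped reads with Bowtie to ASM294v2, with reads of several equal sites placed at 1 of them, and smoothed reads over a 1 kb window. SAMtools and bedtools are named in the submitters' processing notes, and the peak caller is not given in the sources used here. Each list is 1 library. The deposited signal is the coverage of each peak and of its chromosome, not scaled between samples or corrected for input, and fold is their quotient.

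Gene positions came from RefSeq ASM294v3. No peak ran past its chromosome ends, and the start of dak2 (I:64559) equals the start of a site in the study's own list. The end of that site differs from the gene end, and the list names no build. The frames were taken as equal without a comparison of the builds. Lists count starts from 0, and positions are printed from 1.

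Isolates with a peak were compared by Fisher's exact test per gene, two-sided, adjusted by the Benjamini-Hochberg method over all genes with a peak in at least 1 isolate of the pair, at 0.05 (Python 3.11.15, SciPy 1.17.1). The test was tested on simulated data. Intervals are 95% exact binomial and cover counting error only. The p-values treat isolates as independent, although isolates within a group share parents. The members, lists and tests were chosen with earlier results of these data known. All 8 members, listed genes with a peak, the nearest protein-coding genes and the 3 most alike genes over 20 kb away were named by rule. The genes grt1, fah1, fex2, hhy1, isp3, pdc101, sul2 and rga7 were named after their values were seen. Alternatives changed the overlap, fold, length, inputs, parents, gene set, the set of isolates 1 and 13 of tfs1DN, and isolate numbers as pairs.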

Additional observations from a re-analysis of the deposited data

Results flagged for a closer look

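Parent samples, which entered no test of isolates against isolates, had peaks over ght genes that their inputs lacked. In the vector parent, peaks covered 1851 bp of ght3 and 757 bp of ght7. In the seb1-1 parent, peaks covered 99 bp of ght3 and 974 bp of ght7. The covered length in each group was not tested for outlying isolates in groups of more than 10, and the 9 inputs were all at 0.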

How the results depend on the processing

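Of 70 checks of the main comparisons, 54 left the result unchanged or within 1.5 times, and 16 lost calls. The 70 include checks of covered length and comparisons without a called ght gene, in which no call could be lost. All 16 losses fell in the 3 comparisons with a called ght gene. The 54 of 70 is therefore no measure of how stable those calls were. The share of all genes called at each setting is not given beside these counts, so a loss may not be particular to ght genes. In ago1 tfs1DN against vector isolates, where 1 gene (ght3) was called, 0 were called with peaks of fold at least 4.5 or at least the median of 3.37, without peaks that overlap an input peak or lie near the own parent's peaks, and without set 2 or set 3. In seb1-1 against vector isolates, 2 genes were called, and 0 with fold at least 4.5 or without peaks near the own parent's. There was 1 called with at least 50% of the gene covered or fold at least the median (ght3), with peaks of at least 1 kb (ght3), and without peaks that overlap an input peak (ght7). In seb1-1 against tfs1DN isolates, 1 gene (ght7) was called, and 0 with fold at least 4.5, with peaks of at least 1 kb or without peaks near the own parent's. The ght7 difference from vector turned to -13.3 percentage points with peaks of at least 1 kb, and the ght3 difference of tfs1DN from vector to 38.5 without peaks near the parent's (adjusted p = 0.124, Fisher's exact test). A fold of at least 3.2, chosen after seeing the data, gave ght3 -38.5 percentage points in seb1-1 against tfs1DN isolates (adjusted p = 0.0395) and lost the ago1 call (adjusted p = 0.0835). The long end peaks overlap input peaks at the chromosome end, which removes them by construction. Leaving out peaks near the own parent's likewise removed every ght3 and ght7 peak of vector and seb1-1 isolates by construction. Both of their parents had a peak over each of these genes. Isolate numbers did not pair isolates between groups, with median correlations of same-number isolates from -0.0272 to 0.0408, and with numbers as a replicate block 0 ght genes were called in ago1 tfs1DN against vector isolates, where ght3 differed by -75 percentage points (exact McNemar test, adjusted p = 0.0561), and no other ght call changed. Leaving out each ago1 parent gave 0.222 kb throughout, and each pfs2 replicate 0.

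The ght7 peaks have folds near the threshold of 3 and can be lost or gained by small changes in coverage. Listed coverage differed between groups, and in vector and seb1-1 lists it was no plain mean on at least 1 chromosome. Peak presence was therefore not set on 1 scale across groups.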
